A study of Mus musculus with 6 samples.

Results

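The 10 genes described here, *Fgf5*, *Otx2*, *Pou3f1*, *Zic2*, *Utf1*, *Lin28a*, *Lin28b*, *Grhl2*, *Sox11* and *Sall2*, are genes whose levels rise as naive mouse embryonic stem cells (mESCs) move toward the formative and primed states of the epiblast. They were chosen by name from that role, with earlier results of these data known. They are 10 of the 55385 genes whose reads were counted. All 10 had enough reads to be tested, among 16951 genes tested. RNA was sequenced from mESCs of 3 genotypes, namely wild-type cells, cells with a heterozygous deletion of the *Wnt6* anchor region and cells with a homozygous deletion of it, with 2 libraries of each genotype. The *Wnt6* anchor is a region at which a long-range contact between Polycomb-repressed loci ends, and the libraries ask how its loss affected gene expression in stem cells. All cells came from the G4 line, a hybrid of 129/Sv and C57BL/6 mice, and were grown with the cytokine LIF on a layer of CD1 feeder fibroblasts. The deleted cells were clones picked after CRISPR-Cas9 cutting with a pair of guide RNAs, and the number of clones behind the libraries is not given in the sources used here. An effect of the deletion and a difference between clones therefore cannot be told apart. The labels give 2 replicates of each genotype, and the study's methods speak of biological triplicates. Neither says whether the 2 libraries came from separate cultures or clones, so the p-values measure the spread between these libraries, which may be technical.

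Naive mESCs correspond to the epiblast of the blastocyst before implantation. When the signals that hold them in that state are withdrawn, they pass through a formative state, in which they become able to respond to differentiation signals, and then reach a primed state that resembles the epiblast after implantation. The transcription factor OTX2 directs OCT4 to new enhancers during this transition, *Fgf5* is the classic marker of its completion, and the RNA-binding proteins LIN28A and LIN28B block the maturation of let-7 microRNAs, which otherwise repress growth and stemness genes. Cultures in LIF hold cells of more than one of these states, so that low levels of the later genes are usual in them.

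The libraries held between 23813912 and 28964706 counts. Levels are given as CPM, a gene's counts per 1000000 counts of the library, whose total was first scaled by a TMM factor, a correction for composition that ran from 0.962 to 1.02. A level of 3 counts, the most that a count of 0 allows, was between 0.102 and 0.131 CPM, and this floor covers counting error only. The replicate libraries were not copies of each other, since the chi-square of their counts, divided by its degrees of freedom, was 2.34 between the wild-type, 2.45 between the heterozygous and 3.65 between the homozygous libraries. The targeted gene *Wnt6* had 11 and 13 counts in the wild-type libraries, 6 and 4 in the heterozygous libraries and 0 in both homozygous libraries, which goes with the labels. A gene passed the test at an adjusted p below 0.05 in edgeR's quasi-likelihood test and Benjamini-Hochberg adjustment over all genes tested. None of the 10 genes lies on chromosome 1, which carries the deletion.

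LIN28A and LIN28B recognize let-7 precursors partly through a GGAG motif in the loop of the hairpin, and mature let-7 in turn binds sites in target transcripts through its seed, bases 2 to 8. Sequences of both kinds are shown because the proteins of *Lin28a* and *Lin28b* act on let-7 precursors and let-7 is known to act on both transcripts. The search for them was chosen after the expression values were seen, and let-7 itself was not measured, since the libraries were made from polyadenylated RNA. In the RefSeq records for GRCm38.p6, 13 mature mouse microRNAs share the seed GAGGUAG, with 11 distinct sequences. Examples are given 5′ to 3′ with the seed in capitals.
mmu-let-7a-5p: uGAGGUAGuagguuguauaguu
mmu-let-7d-5p: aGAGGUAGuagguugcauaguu
mmu-let-7g-5p: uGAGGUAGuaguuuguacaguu
mmu-let-7i-5p: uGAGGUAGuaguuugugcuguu
The first of these comes from chr13:48538239-48538260 (minus strand), the second from chr13:48536078-48536099 (minus strand), the third from chr9:106178846-106178867 (plus strand) and the last from chr10:122985698-122985719 (minus strand). Of the 11 hairpins of the family in which both arms are annotated, 8 hold GGAG on the strand of the hairpin between the arms. The share among all 61 mouse hairpins with both arms and a stretch of the same length range (23 to 36 bases) was 24.6%. These 61 include the 11 of the family, and the 15 of them with GGAG include the 8 of the family. Stretches between the arms are shown for 4 hairpins of the family with GGAG in capitals.
Mirlet7a-1: uuagggucacacccaccacugGGAGauaa
Mirlet7c-1: uagaguuacacccugGGAGuuaa
Mirlet7e: gaggaagacacccgaGGAGauca
Mirlet7f-2: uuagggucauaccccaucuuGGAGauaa
The complement of the let-7 seed, CTACCTC, was counted on the transcript strand of the longest annotated 3′ untranslated region (UTR) of each gene. It occurred 4 times in that of *Lin28b* (4445 bases) and 2 times in that of *Lin28a* (2775 bases), and it did not occur in those of the other 8 genes. Of 14268 tested genes with an annotated 3′ UTR, 10.7% held at least 1 match and 0.189% held at least 3. Matches are shown from the transcripts of GENCODE M21 on GRCm38, with the 7 bases in capitals, for both *Lin28* genes and for *Hmga2* and *Igf2bp3*, whose changes are given further on.
Lin28a: ctgttgaaCTACCTCatttttgc
Lin28b: cgggaagtCTACCTCatgcaagc
Hmga2: ttcaatttCTACCTCagcatcag
Igf2bp3: ttactcaaCTACCTCaggtattc
A match is a description of the letters and says nothing of binding in these cells.

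The levels of the 10 genes in wild-type cells covered a wide range. To compare genes, CPM was divided by the length of each gene's merged exons in kilobases. *Utf1*, which encodes a chromatin-bound coactivator of pluripotent cells, was at 211 ± 12.1 CPM per kb (SD, n = 2), above 99.0% of the 16940 tested genes with a known length. *Lin28a* was close to it at 193.5 ± 6.85 CPM per kb (SD, n = 2). Both genes are already abundant in stem cells before the epiblast genes rise, and they stood far above the other members. *Pou3f1*, which encodes the POU-domain factor OCT6, followed at 15.7 ± 0.562 CPM per kb, and *Zic2*, a zinc finger factor that binds enhancers in stem cells, at 13.2 ± 0.101. *Sall2*, a zinc finger factor related to SALL4, was at 11.6 ± 0.0689 and *Lin28b* at 10.5 ± 0.123 CPM per kb. *Sox11*, a SOX factor of neural and mesenchymal progenitors, was at 9.60 ± 0.464 and *Grhl2*, a regulator of epithelial enhancers in the formative state, at 7.46 ± 0.111 CPM per kb. The classic markers of the later state were the lowest. *Otx2* was at 5.25 ± 0.0748 CPM per kb, above 58.2% of genes, and *Fgf5*, a secreted growth factor, was at 1.98 ± 0.402 CPM per kb, above 40.1% of genes. In wild-type cells the libraries of neighbors in this order did not overlap, although the lower *Utf1* library, at 203 CPM per kb, lay close to the higher *Lin28a* library, at 198. This top pair changed order in the heterozygous libraries, where *Lin28a* was at 198 and 205 CPM per kb and *Utf1* at 195 and 163.

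**Figure D1:**
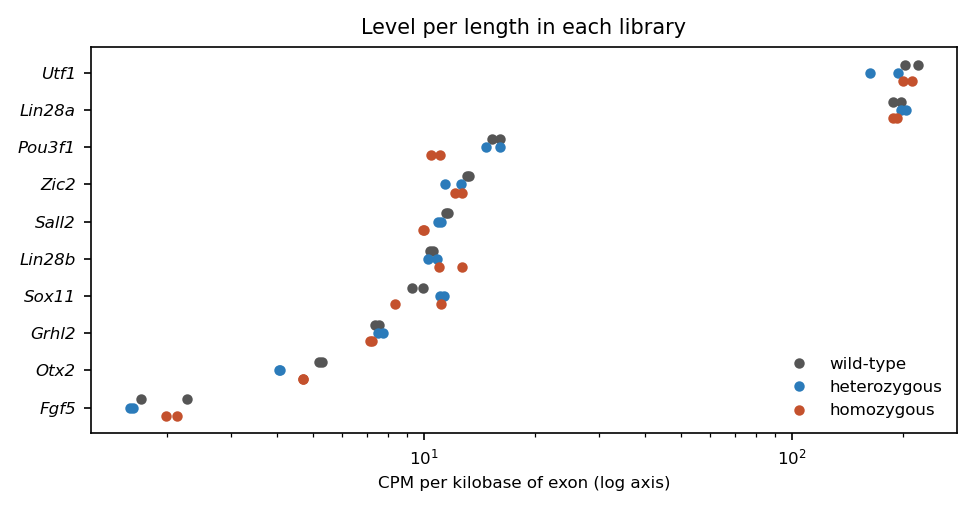
CPM per kilobase of merged exons (horizontal log axis) of each of the 10 genes in each of the 6 libraries (points, colored by genotype). *Utf1* and *Lin28a* sat near 200 CPM per kb, while *Fgf5* sat near 2 in every genotype.

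In the deleted cells most of the 10 genes stayed near their wild-type level. In the heterozygous deletion *Otx2* and *Utf1* fell and none rose, although *Sox11* passed as higher in 4 of the 15 alternatives. In the homozygous deletion *Pou3f1* and *Sall2* fell and *Lin28b* rose. None of the 10 passed the test with a change above 2-fold in any comparison. Counted together, the 10 genes summed to 1454 and 1466 CPM in wild-type, to 1458 and 1450 CPM in heterozygous and to 1422 and 1425 CPM in homozygous libraries. This sum is set mostly by *Lin28a* and *Utf1*, and the homozygous libraries were the lowest of the 6.

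**Figure D2:**
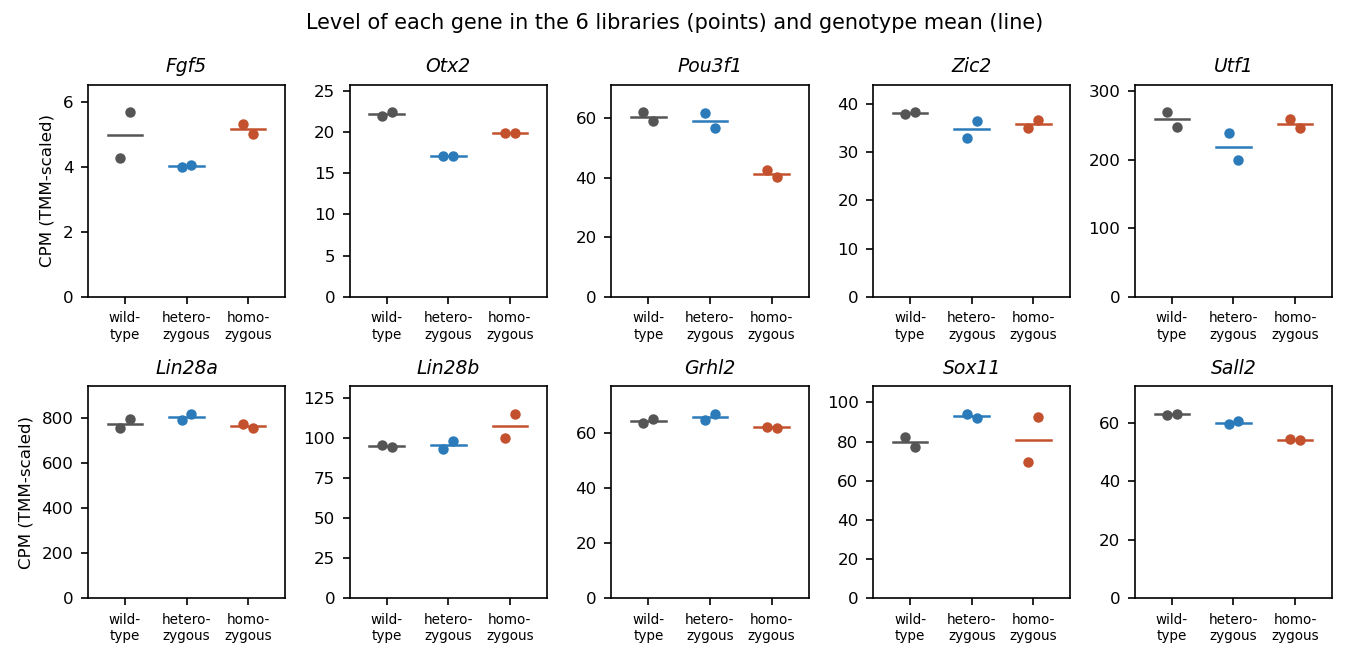
TMM-scaled CPM (vertical axes, each starting at 0 with its own scale) of each of the 10 genes in the wild-type, heterozygous and homozygous libraries, with a point for each library and a line at the genotype mean. Both *Pou3f1* points of the homozygous deletion, at 42.5 and 40.2 CPM, lie below the 4 others, and both *Otx2* points of the heterozygous deletion, at 17.1 CPM, lie below the 4 others.

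In the heterozygous deletion against wild-type, 0 of the 10 genes were higher, where 2.23% of all tested genes were higher. Lower were 2 of the 10, where 2.91% of all tested genes were, and 8 did not pass. Past the 2-fold threshold were 0 of the 10, where 0.165% of all genes were. The median log2 fold change of the 10 was -0.05, with 6 below 0, while the median of all genes tested was 7.69e-06. The 2 genes that fell encode a homeodomain factor and a chromatin coactivator.

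*Otx2*, the homeodomain factor that opens epiblast enhancers, lies on chromosome 14 (chr14:48657677-48673819 in GRCm38, minus strand). Its level was 21.9 and 22.4 CPM in the wild-type, 17.1 and 17.1 in the heterozygous and 19.8 and 19.8 in the homozygous libraries, from 426 to 645 counts. The libraries of each genotype lay almost on each other, the heterozygous libraries were the lowest, and no genotypes overlapped. The fall in the heterozygous deletion was -0.37 on the log2 scale (SE 0.0736, adjusted p = 0.00366 by edgeR's quasi-likelihood test and Benjamini-Hochberg adjustment). In the homozygous deletion the difference from wild-type was -0.16 (SE 0.0726, adjusted p = 0.128, edgeR). An antisense transcript, *Otx2os1*, overlaps exons of *Otx2* and held 1 to 6 counts in each library. Without wild-type replicate 2 the heterozygous difference was -0.36 with an adjusted p of 0.0601 (edgeR).

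*Utf1*, on chromosome 7 (chr7:139943789-139945112, plus strand), was at 269 and 249 CPM in the wild-type libraries, 239 and 200 in the heterozygous libraries and 260 and 246 in the homozygous libraries. The heterozygous libraries were the lowest of the 6, and they also lay farthest apart, while wild-type and homozygous libraries overlapped. The fall in the heterozygous deletion was -0.24 (SE 0.0622, adjusted p = 0.0263, edgeR). This call rests on heterozygous replicate 2, without which the difference was -0.12 (adjusted p = 0.497, edgeR). It was also lost without wild-type replicate 1 (adjusted p = 0.318, edgeR) and without wild-type replicate 2 (adjusted p = 0.0550, edgeR). DESeq2 gave an adjusted p of 0.368 and edgeR with robust estimation 0.232.

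*Fgf5* (chr5:98254184-98277030, plus strand) was covered by 125 and 145 counts in the wild-type, 99 and 108 in the heterozygous and 122 and 130 in the homozygous libraries. As levels these were 4.25 and 5.67 CPM, 3.98 and 4.05 CPM, and 5.32 and 4.99 CPM. The heterozygous libraries were the lowest, as for *Otx2*, but the wild-type libraries of this sparsely counted gene were far apart. The log2 difference was -0.29 in the heterozygous (SE 0.154, adjusted p = 0.363, edgeR) and 0.06 in the homozygous deletion (SE 0.148, adjusted p = 0.813, edgeR). The heterozygous difference was -0.50 without wild-type replicate 1 (adjusted p = 0.190, edgeR) and -0.08 without wild-type replicate 2 (adjusted p = 0.935, edgeR).

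*Sox11* (chr12:27334264-27342574, minus strand) was at 82.5 and 77.1 CPM in the wild-type, 94.2 and 92.0 in the heterozygous and 69.4 and 92.4 in the homozygous libraries. Both heterozygous libraries lay above both wild-type libraries, and of the homozygous libraries replicate 1 lay below every other library while replicate 2 lay among the heterozygous values. The heterozygous difference was 0.22 (SE 0.0814, adjusted p = 0.148, edgeR). It passed when homozygous replicate 1 was left out (adjusted p = 0.00175, edgeR) or homozygous replicate 2 was left out (adjusted p = 0.00183, edgeR). It also passed when only the heterozygous and wild-type libraries were fitted (adjusted p = 0.00183, edgeR) and when all genes with any count were fitted (adjusted p = 0.00277, edgeR), while robust estimation gave an adjusted p of 0.598 and DESeq2 0.802. The homozygous difference from wild-type was 0.02 (SE 0.0825, adjusted p = 0.883, edgeR). It was 0.21 without homozygous replicate 1 (adjusted p = 0.00840, edgeR) and -0.20 without homozygous replicate 2 (adjusted p = 0.0160, edgeR), so that it passed in opposite directions depending on which homozygous library was kept.

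The other 6 genes that did not pass in the heterozygous deletion had differences between -0.13 and 0.06 on the log2 scale. *Zic2* was at 38.0 ± 0.291 CPM (SD, n = 2) in wild-type and 34.7 ± 2.41 in heterozygous cells, a log2 difference of -0.13 (SE 0.0637). *Lin28a* was at 773 ± 27.4 and 805 ± 18.9 CPM, a difference of 0.06 (SE 0.0406). Of the 10 genes *Lin28a* was the most deeply counted, with 17714 to 22167 counts in each library, and its difference had the smallest standard error. *Grhl2* was at 64.2 ± 0.957 and 65.8 ± 1.51 CPM, a difference of 0.04 (SE 0.0501), and *Lin28b* was at 95.0 ± 1.12 and 95.7 ± 3.57 CPM, a difference of 0.01 (SE 0.0571). *Pou3f1* was at 60.5 ± 2.16 and 59.3 ± 3.70 CPM, a difference of -0.03 (SE 0.0574). The remaining gene, *Sall2*, was at 62.8 ± 0.374 and 59.9 ± 0.717 CPM, a difference of -0.07 (SE 0.0504, adjusted p = 0.564, edgeR), and its heterozygous libraries lay below its wild-type libraries.

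Between homozygous and wild-type cells, 1 of the 10 genes was higher, where 10.9% of all tested genes were higher, and 2 were lower, where 10.5% of all tested genes were lower. The other 7 did not pass, and 0 passed the 2-fold threshold, where 2.14% of all genes did. The median log2 fold change of the 10 was -0.04, with 7 below 0, and that of all genes tested was -0.00608. The comparison shares its wild-type libraries with the heterozygous one.

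*Pou3f1*, which encodes OCT6, a POU factor of the formative epiblast and of neural and glial progenitors, had the smallest adjusted p of the 10 genes. It is a single-exon gene on chromosome 4 (chr4:124656807-124660655, plus strand). The wild-type libraries held 1825 and 1508 of its reads, the heterozygous ones 1541 and 1509 and the homozygous ones 975 and 1046. As levels these were 62.1 and 59.0 CPM, 61.9 and 56.7 CPM, and 42.5 and 40.2 CPM. The homozygous libraries were well below the other 4, which overlapped each other. Relative to wild-type the homozygous level was 0.682-fold, a log2 change of -0.55 (SE 0.0599, adjusted p = 9.05e-07, edgeR's quasi-likelihood test and Benjamini-Hochberg adjustment). In each of the 15 alternatives that were run *Pou3f1* kept this call, with log2 changes from -0.61 to -0.51. An antisense transcript that overlaps its exon, *Gm2164*, held 2 to 13 counts in each library. In bulk RNA a lower share of cells that express *Pou3f1* and less *Pou3f1* RNA per cell cannot be told apart.

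*Sall2* (chr14:52311172-52328762, minus strand) was at 62.5 and 63.0 CPM in the wild-type, 59.4 and 60.4 in the heterozygous and 54.3 and 54.0 in the homozygous libraries. Its levels stepped down from wild-type through heterozygous to homozygous cells without overlap, and the steps were small. The homozygous change was -0.21 (SE 0.0511, adjusted p = 0.00467, edgeR). Without wild-type replicate 2 it was -0.20 with an adjusted p of 0.0559 (edgeR).

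*Lin28b* (chr10:45376620-45486395, minus strand) was at 95.8 and 94.2 CPM in the wild-type, 93.2 and 98.2 in the heterozygous and 99.9 and 115 in the homozygous libraries. The homozygous libraries were the highest, and replicate 2 of them stood above the 5 others. The rise was 0.18 on the log2 scale (SE 0.0569, adjusted p = 0.0290, edgeR). It rests on homozygous replicate 2, without which it was 0.07 (adjusted p = 0.411, edgeR). It did not pass without wild-type replicate 1 (adjusted p = 0.112, edgeR), without wild-type replicate 2 (adjusted p = 0.131, edgeR), with scaling to total counts only (0.12, adjusted p = 0.162, edgeR) or in DESeq2 (adjusted p = 0.0613). Its paralog *Lin28a* (chr4:134003330-134018841, minus strand) was at 754 and 793 CPM in wild-type cells and at 773 and 754 in homozygous cells, which overlapped, with a difference of -0.02 (SE 0.0407, adjusted p = 0.807, edgeR).

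Of the remaining genes, *Utf1* differed from wild-type by -0.04 in the homozygous deletion (SE 0.0620) and *Zic2* (chr14:122475435-122479852, plus strand) by -0.09 (SE 0.0638), at 35.8 ± 1.10 CPM (SD, n = 2). *Grhl2* (chr15:37233036-37363569, plus strand) differed by -0.05 (SE 0.0506), at 61.9 ± 0.388 CPM. An antisense transcript that overlaps exons of *Grhl2*, *Gm16136*, held 39 to 61 counts in each library, against 1426 to 1869 for *Grhl2* itself.

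**Figure D3:**
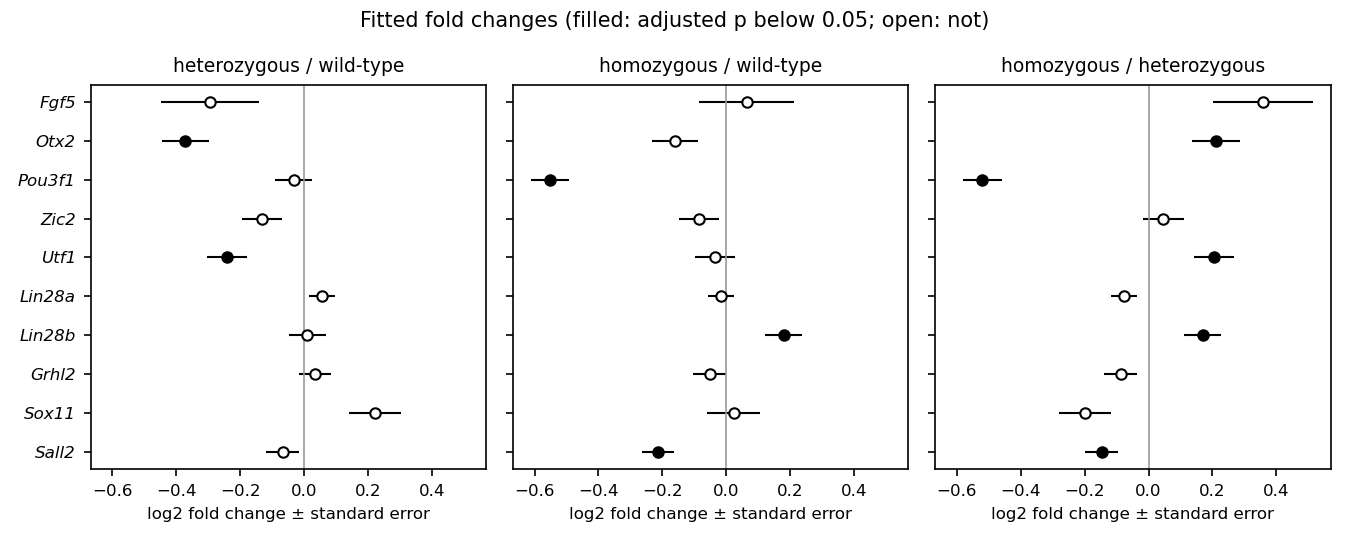
Fitted log2 fold change (horizontal axes) of each of the 10 genes in the 3 comparisons, with bars of 1 standard error and filled points where the adjusted p was below 0.05. *Pou3f1* lies at -0.55 against wild-type and -0.52 against the heterozygous deletion, but at -0.03 between the heterozygous deletion and wild-type, while *Otx2* lies lowest, at -0.37, in the heterozygous deletion.

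Set directly against each other, the deletions differed in 5 of the 10 genes. Higher with the homozygous deletion were 3 of the 10 (*Otx2*, *Utf1* and *Lin28b*), where 12.9% of all tested genes were higher. Lower were 2 of the 10 (*Pou3f1* and *Sall2*), where 12.9% of all tested genes were lower. The 2-fold threshold was passed by 0 of the 10 and by 1.39% of all genes. The median log2 fold change of the 10 was -0.01, and that of all genes tested was -0.02. *Pou3f1* differed by -0.52 (SE 0.0603, adjusted p = 1.98e-06, edgeR) and kept this call in each of the 15 alternatives, with log2 changes from -0.59 to -0.46. The other 4 calls had less margin. *Otx2* differed by 0.21 (SE 0.0758, adjusted p = 0.0467, edgeR), a call lost in 12 of the 15 alternatives, among them those that left out any 1 of the 6 libraries. *Utf1* differed by 0.21 (SE 0.0625, adjusted p = 0.0203, edgeR), which fell to 0.08 without heterozygous replicate 2 (adjusted p = 0.399, edgeR) and was also lost without homozygous replicate 1 (adjusted p = 0.0636, edgeR). *Lin28b* differed by 0.17 (SE 0.0571, adjusted p = 0.035, edgeR), which fell to 0.06 without homozygous replicate 2 (adjusted p = 0.463, edgeR). It also did not pass without wild-type replicate 1 or either heterozygous replicate (adjusted p from 0.0507 to 0.224, edgeR). *Sall2* differed by -0.15 (SE 0.0516, adjusted p = 0.0429, edgeR), a call lost in 11 of the 15 alternatives, including each that left out 1 library. *Sox11* differed by -0.20 (SE 0.0820, adjusted p = 0.0839, edgeR), by -0.42 without homozygous replicate 2 (adjusted p = 1.48e-06, edgeR), and by -0.01 without homozygous replicate 1 (adjusted p = 0.932, edgeR). *Fgf5* had a difference of 0.36 with a wide error (SE 0.156, adjusted p = 0.0998, edgeR). *Zic2*, *Lin28a* and *Grhl2* differed by 0.05, -0.08 and -0.09, with adjusted p-values of 0.651, 0.187 and 0.224 (edgeR). With total counts as the only scaling, *Lin28a* (-0.14, adjusted p = 0.00554, edgeR), *Grhl2* (-0.15, adjusted p = 0.0280) and *Sox11* (-0.26, adjusted p = 0.0365) passed as lower, and *Otx2*, *Utf1* and *Lin28b* did not pass as higher.

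*Pou3f1* was lowest in the homozygous and *Otx2* in the heterozygous libraries. Over the 6 libraries, the genes whose log2 CPM followed *Pou3f1* most closely among 9314 genes with a mean of at least 10 CPM were *Ltbp1* (Pearson r = 0.998), *Il17ra* (r = 0.995) and *Emp3* (r = 0.995). *Ltbp1* was at 65.4 and 63.6 CPM in the wild-type, 64.9 and 62.2 in the heterozygous and 49.9 and 46.9 in the homozygous libraries, the same low homozygous pair as *Pou3f1*. For *Otx2* they were *Tcea3* (r = 0.999), *Tfpi* (r = 0.987) and *Coq3* (r = 0.985). *Tcea3* was at 53.5 and 55.0 CPM, 42.2 and 42.4 CPM, and 48.3 and 48.2 CPM in the same order, lowest in the heterozygous libraries. With 6 points that share genotype and library such values are reached by many genes, and 245 genes had an r above 0.95 with *Pou3f1* and 19 with *Otx2*.

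Other genes of the epiblast state moved in both directions. Of 18 such genes, 2 rose, 3 fell and 13 did not pass in the heterozygous deletion, with a median of -0.11. With the homozygous deletion 3 rose, 4 fell and 11 did not pass, with a median of -0.06. *Foxd3*, a forkhead factor needed for the exit from naive pluripotency, fell by 0.49 on the log2 scale in the heterozygous deletion, from 12.1 and 11.9 CPM to 8.15 and 8.94 CPM, the libraries in which *Otx2* was lowest. *Igfbp3*, a secreted binder of insulin-like growth factors, rose by 0.40 in the heterozygous and by 0.23 in the homozygous deletion, and the tight junction gene *Cldn6* rose by 0.34 in the heterozygous deletion. *Enpp2*, which encodes the enzyme autotaxin, fell by 0.66 in the homozygous deletion, from 28.6 and 28.7 CPM to 18.3 and 18.0 CPM, and the kinase gene *Pim2* fell by 0.27. Homozygous against heterozygous, 4 were higher, 5 lower and 9 did not pass, with *Enpp2* at -0.83 and *Pim2* at -0.29. These splits depended on the scaling. With total counts only, 1 of these genes rose and 8 fell in the homozygous deletion against wild-type, and 2 rose and 6 fell between the heterozygous and the homozygous deletion.

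Genes of the naive state, which precedes the epiblast state, were counted in the same way, and the shares of all tested genes are those given above. Of 16 naive genes, 0 rose, 8 fell and 8 did not pass in the heterozygous deletion, where *Otx2* and *Utf1* fell, with a median of -0.28, among them *Spp1* (-0.40), the nuclear receptor gene *Esrrb* (-0.38) and *Zfp42*, which encodes REX1 (-0.31). Homozygous cells had 3 naive genes that rose and 3 that fell, with a median of 0.06, *Zfp42* at 0.22, *Spp1* at -0.61 and *Gbx2* at -0.56. With DESeq2 size factors 4 rose and 2 fell. Between the deletions 9 were higher and 1 lower in the homozygous cells, with *Zfp42* at 0.53, *Nr0b1* at 0.61 and *Esrrb* at 0.40. Of 7 core pluripotency genes, *Sox2* fell by 0.19 in the heterozygous deletion and 6 did not pass, and *L1td1* rose by 0.15 in the homozygous deletion and 6 did not pass. Homozygous against heterozygous, 4 core genes were higher and 3 did not pass, with *L1td1* at 0.18, *Sall4* at 0.18 and *Pou5f1*, which encodes OCT4, at 0.18. With total counts only, 3 core genes were higher between the deletions. With only the libraries compared, 2 core genes fell in the heterozygous deletion. *Pou5f1* itself was at 876 to 1064 CPM in the 6 libraries.

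The genes of the LIN28 and let-7 axis were examined beside the pair of *Lin28* genes. Of 15 such genes, 2 rose, 1 fell and 12 did not pass in the heterozygous deletion, with a median of 0.02. In the homozygous deletion 7 rose, 0 fell and 8 did not pass, with a median of 0.10. *Igf2bp3*, an RNA-binding protein gene with 1 seed match in its 3′ UTR, rose by 0.34 in the homozygous deletion, from 71.3 and 71.4 CPM to 92.8 and 87.5 CPM. *Dis3l2*, the nuclease that degrades let-7 precursors tailed with uridine, rose by 0.41, and *Tut4*, which adds those tails with LIN28, rose by 0.26. *Hmga2*, a chromatin protein gene with 4 seed matches and a classic let-7 target, rose by 0.29 in the heterozygous deletion, from 107 and 108 CPM to 129 and 135 CPM, and was at 99.6 and 112 CPM in the homozygous libraries. *Arid3a* rose by 0.33 and *Mycn* fell by 0.17 in the heterozygous deletion. The named genes that rose in either deletion include known targets of let-7 as well as enzymes of its processing. *Hmga2* differed from wild-type by -0.02 in the homozygous deletion (adjusted p = 0.832, edgeR). Let-7 was not measured, and a part of LIN28B or let-7 in these changes was not tested. Homozygous against heterozygous, 7 were higher and 2 lower, with *Igf2bp3* at 0.42, *Hmga2* at -0.31 and *Dicer1*, which cuts microRNA precursors, at 0.25. With total counts only, 4 rose and 1 fell in the heterozygous deletion, 4 rose and 0 fell in the homozygous deletion, and 6 were higher and 3 lower between the deletions. The heterozygous split was also 4 and 1 with robust estimation, all genes with any count, or only the libraries compared. DESeq2 gave 1 and 1 there. Over all tested genes, the 27 with at least 3 seed matches had medians of 0.10 (heterozygous) and 0.09 (homozygous) on the log2 scale, against -0.00289 and -0.00176 in genes without a match. The 1529 genes with at least 1 match had medians of 0.014 and 0.0155, and between the deletions the 27 genes had a median of 0.00179. The 27 genes include *Lin28b*, *Trim71*, *Hmga2* and *Igf2bp1*, with 4 matches each, so they are not independent of the genes above. The groups were not matched for the length of the 3′ UTR, and an effect of let-7 was not tested.

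Relatives of the 10 genes in the same families were tested in 10 of 11 cases. In the heterozygous deletion 0 rose, 2 fell and 8 did not pass, with a median of -0.20, and in the homozygous deletion 2 rose, 0 fell and 8 did not pass, with a median of -0.03. *Sall1*, a relative of *Sall2*, fell by 0.40 in the heterozygous and rose by 0.34 in the homozygous deletion. Its libraries were at 194 and 192 CPM, 147 and 147 CPM, and 246 and 243 CPM, so that the genotypes did not overlap and *Sall1* went the other way from *Sall2* in the homozygous cells. *Sall3* rose by 0.51 in the homozygous deletion, and *Sox12*, a relative of *Sox11*, fell by 0.21 in the heterozygous deletion. Between the deletions *Sall1* was higher by 0.74 and *Sall3* by 0.72, 0 were lower and 8 did not pass. With total counts only, the homozygous split was 2 higher and 1 lower. Robust estimation, a filter of at least 1 CPM in 2 libraries and only the libraries compared gave the same split.

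**Figure D4:**
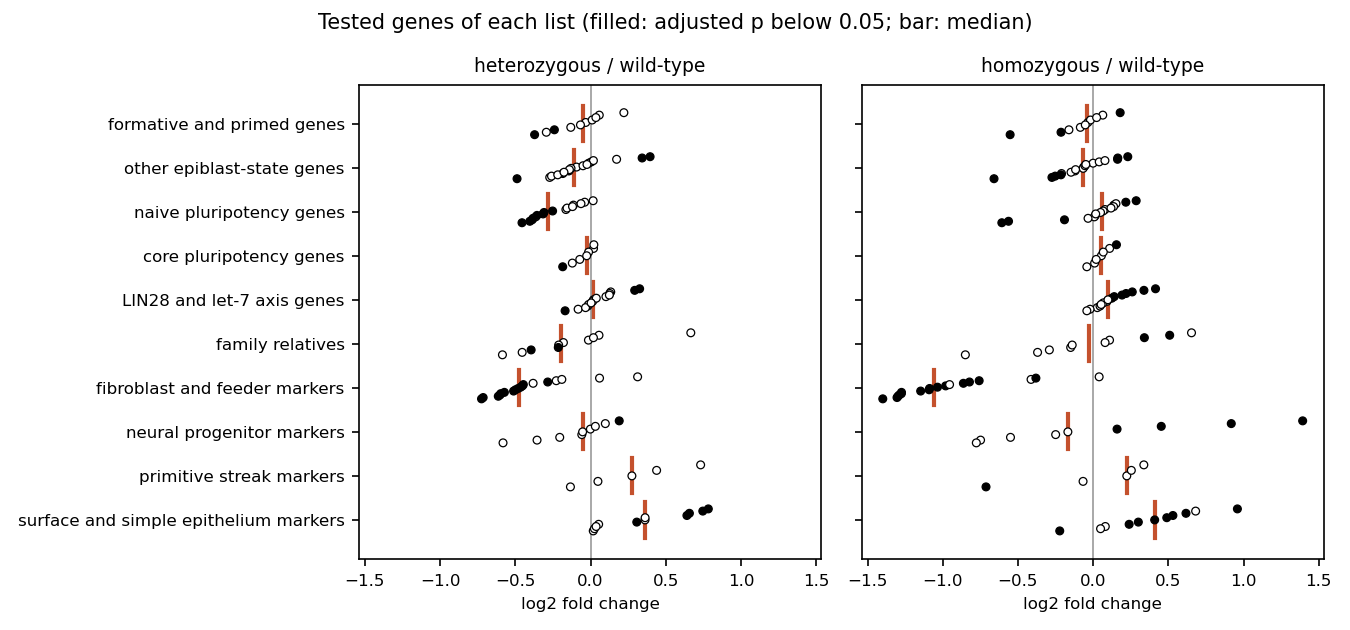
Fitted log2 fold changes (horizontal axes) of the tested genes of each list against wild-type in the heterozygous (left) and homozygous deletion (right), with filled points at an adjusted p below 0.05 and a bar at each list's median. The 10 formative and primed genes have medians of -0.05 and -0.04, the fibroblast and feeder markers medians of -0.47 and -1.06.

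Genes listed as markers of other cell types moved with the genotypes as well, but bulk RNA does not show which cells expressed them. Fibroblast and feeder markers, of which 18 of 20 were tested and none was at 0 in every library, fell most. Heterozygous cells had 13 that fell and 0 that rose, with a median of -0.47, and in the homozygous deletion 15 fell and 0 rose, with a median of -1.06 and 10 past the 2-fold threshold. Their summed level was 1401 to 1410 CPM in wild-type, 951 to 1003 in heterozygous and 657 to 667 in homozygous libraries. *Col1a1* was at -0.57 and -1.27, *Col1a2* at -0.60 and -1.28 and *Acta2* at -0.50 and -1.15 in the heterozygous and homozygous deletion. Between the deletions 14 were lower and 1 higher, with a median of -0.61, *Col1a1* at -0.70, *Col1a2* at -0.67 and *Acta2* at -0.65. In the heterozygous deletion these markers had a median of -0.47 and *Pou3f1* was at -0.03. In the homozygous deletion the median was -1.06 and *Pou3f1* was at -0.55. The part of the feeder cells in the levels of *Pou3f1*, *Otx2*, *Utf1*, *Sall2* and *Lin28b* was not tested.

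**Figure D5:**
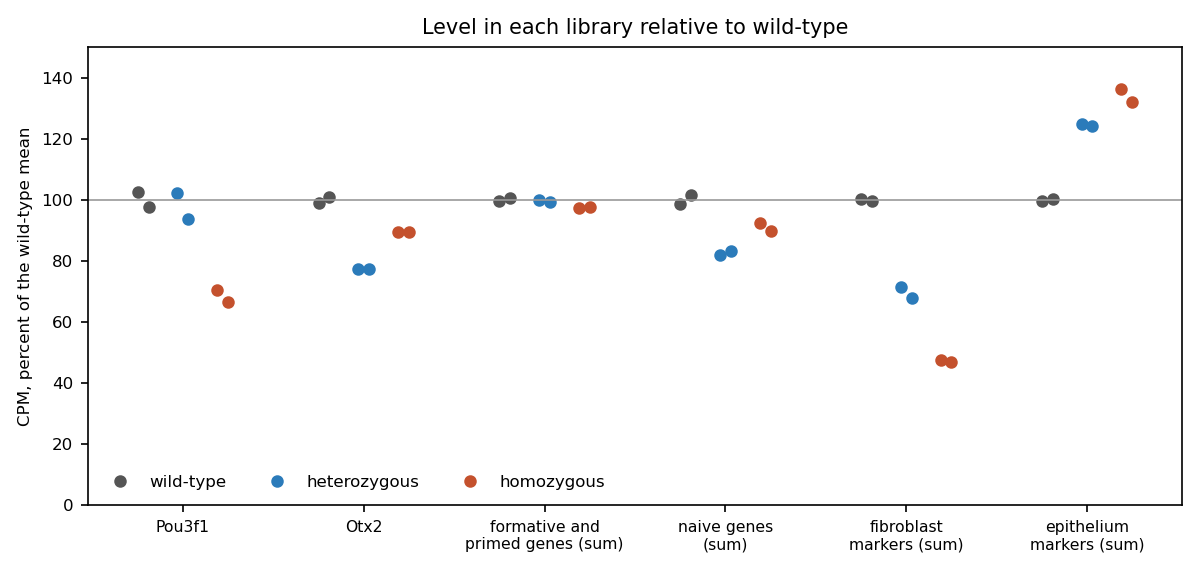
Level in each library as a percent of the wild-type mean (vertical axis) for *Pou3f1*, *Otx2* and the summed CPM of 4 lists, with points colored by genotype. The fibroblast markers were at 71.4 and 67.7% in the heterozygous libraries, where *Pou3f1* was at 102 and 93.6%, and at 47.4 and 46.8% in the homozygous libraries, where *Pou3f1* was at 70.3 and 66.3%.

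Neural progenitor markers, of interest because *Pou3f1*, *Zic2*, *Otx2* and *Sox11* are also neural genes, were tested in 9 of 12 cases. The neuroepithelial filament gene *Nes* rose by 0.19 in the heterozygous deletion and 8 did not pass, with a median of -0.05. In the homozygous deletion, where *Pou3f1* fell, 4 rose and 0 fell, among them *Sox1* (1.39), *Pax6* (0.92) and *Tubb3* (0.45), while the median was -0.17. *Sox1* was at 2.62 and 2.74 CPM in wild-type and 7.33 and 6.76 CPM in homozygous libraries, and *Pax6* at 9.39 and 9.16 CPM and 16.4 and 18.6 CPM. Between the deletions 3 were higher and 0 lower, with a median of -0.19 and *Sox1* at 1.98, *Pax6* at 0.98 and *Tubb3* at 0.66. With DESeq2 size factors 1 rose and 1 fell in the heterozygous deletion, and with total counts only the splits were 3 and 1 in the homozygous deletion and 3 and 2 between the deletions. The summed level of the 12 markers was 316 to 326 CPM in wild-type, 337 to 345 in heterozygous and 373 to 382 in homozygous libraries. This sum is set mostly by *Nes*, with means of 211, 240 and 235 CPM in the same order, and *Tubb3*, with 65.8, 57.2 and 90.2 CPM. It therefore does not describe the list as a whole, whose medians against wild-type were below 0.

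Primitive streak markers were scarce, with a summed level of 11.0 to 14.6 CPM in the 6 libraries and 5 of 10 genes tested. In the heterozygous deletion 0 passed, with a median of 0.27, and in the homozygous deletion *T* fell by 0.71 and 4 did not pass, with a median of 0.22. Between the deletions *T* was lower by -1.15. Surface and simple epithelium markers, set beside *Grhl2*, were tested in 11 of 12 cases. Heterozygous cells had 5 that rose and 0 that fell, with a median of 0.36, and in the homozygous deletion 7 rose and 1 fell, with a median of 0.41. The keratin genes *Krt18*, *Krt8* and *Krt19* rose by 0.78, 0.75 and 0.64 in the heterozygous deletion, and *Krt19*, *Cdh1* and *Krt8* by 0.96, 0.53 and 0.41 in the homozygous deletion. Between the deletions 2 were higher and 3 lower, with *Cdh1* at 0.51, *Krt18* at -0.48 and *Krt8* at -0.34. *Grhl2* itself, at 61.7 to 66.9 CPM in the 6 libraries, had log2 differences of 0.04, -0.05 and -0.09 in the 3 comparisons. *Cdh1* was at 873 and 881 CPM in the wild-type libraries, near *Pou5f1* at 973 and 991 CPM. Other genes of the list were far lower, such as *Krt7* at 9.01 and 9.31 CPM in the wild-type libraries. Bulk RNA does not show whether the list marks a separate cell type. Whether the cells that expressed these genes had a part in the levels of the 10 genes was not tested.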

How the data were processed

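PolyA RNA of mESCs was sequenced with a stranded kit. The authors deposited raw read counts per gene. The submitters' processing notes name Trimmomatic 0.39, STAR 2.6.1d, SAMtools 1.9, featureCounts 1.6.4, DESeq2 1.22.2 and mm10. The strand setting of the counting and the annotation release are not given in the sources used here. Genotypes came from the labels. The methods state biological triplicates, and the 6 labeled libraries were used.

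Genes that reached 10 counts in 2 or more libraries were fitted together with edgeR 4.0.16 in R 4.3.3 (TMM, quasi-likelihood test, common biological coefficient of variation 3.52%). Benjamini-Hochberg adjustment covered all genes tested. Named list genes are those with the smallest adjusted p, at most 3 per list and comparison. A gene that this rule would name is not reported here. Genes like a member were ranked by Pearson correlation of log2(CPM + 0.5). The members and lists were chosen with earlier results of these data known. Alternatives were DESeq2 1.42.0, other scalings and filters, robust estimation, a replicate block, only the libraries compared and each library left out. Positions came from GENCODE M21, which held 55144 of 55385 identifiers.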

Additional observations from a re-analysis of the deposited data

How the results depend on the processing

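Of the 10 genes, 2, 3 and 5 passed in the heterozygous, the homozygous and the direct comparison of the deletions. The fold threshold left 0 in each. DESeq2 called 1, 2 and 1 of them, and robust estimation 1, 3 and 3. With only the libraries compared, 3 passed between the deletions, and the replicate block also gave 3 there, while it changed no count against wild-type. The deviations of same-numbered libraries had correlations of 0.0788 (wild-type and heterozygous), -0.291 (wild-type and homozygous) and 0.0697 (heterozygous and homozygous). The numbers were not used as a pairing in the main fit. The labels do not say whether equal numbers share a batch, and these correlations cannot settle it. A crossed replicate block, added after seeing the data, called 2, 3 and 6. Leaving out 1 library, whose genotype's other library was then assumed to vary like the rest, gave 0 to 3, 1 to 4 and 1 to 3 calls. The lowest counts came without wild-type replicate 2 (0 and 1) and without heterozygous replicate 2 (1). Of the 10 calls, the pair of *Pou3f1* was the only one kept in each of the 15 alternatives without the fold threshold, and the causes of the lost calls were not tested. With total counts only, 5 of the 10 were lower and 0 higher between the deletions and 3 lower and 0 higher in the homozygous cells, the median of all genes moved to -0.09 and -0.06, and over all genes 1391 were higher and 3337 lower, and 1183 higher and 2525 lower (against 2191 and 2180, and 1847 and 1786, with TMM). DESeq2 called 1626 and 1135 genes between the deletions, 1291 and 974 in the homozygous and 198 and 284 in the heterozygous deletion, where 378 and 493 had passed.

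Differences that changed sign had not passed with all 6 libraries, but *Sox11* in the homozygous deletion passed as higher without homozygous replicate 1 and as lower without homozygous replicate 2. With total counts only these were *Sox11* in the homozygous deletion (-0.033) and *Zic2* between the deletions (-0.020). Leaving out 1 library, log2 differences in the homozygous deletion ran from -0.14 to 0.29 for *Fgf5*, from -0.055 to 0.027 for *Lin28a*, from -0.20 to 0.21 for *Sox11* and from -0.083 to 0.024 for *Utf1*. In the heterozygous deletion they ran from -0.029 to 0.048 for *Lin28b* and from -0.096 to 0.031 for *Pou3f1*, and between the deletions from -0.022 to 0.12 for *Zic2*.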
